A study of Mus musculus with 6 samples.

Results

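Collagen genes were examined in 6 lists of H3K4me3 peaks from mouse striatal progenitor cells. H3K4me3, a histone mark in which lysine 4 of H3 carries 3 methyl groups, is found at the starts of active genes and was mapped by ChIP-Seq. The members were the protein-coding genes of GENCODE mouse release M21 whose symbols run Col, a number, a and a number, and these were 44 of 21911 protein-coding genes. The cells were STHdh lines of the C57BL/6 strain, conditionally immortalized from mouse striatum, and all 6 conditions had 24 hours of serum starvation. Q7SST came from the wild-type line STHdhQ7, which carries normal huntingtin, with vehicle. Q111SST came from the mutant line STHdhQ111, in which both copies of the huntingtin gene carry a knocked-in glutamine repeat expansion, with vehicle. The other 4 lists came from STHdhQ111 cells given 10 uM of cyproheptadine, loxapine, diacylglycerol kinase inhibitor II (DKI) or meclizine. Each condition had 1 list, so no test was made, and the genotype cannot be told apart from any other difference between the lines or between their libraries.

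Collagens are proteins of the extracellular matrix in which 3 chains wind into a triple helix, and different chains combine into types with different shapes. Fibrillar chains build the cable-like fibrils of skin, tendon, bone and cartilage, type IV chains build the sheet of basement membranes, and other types sit on fibrils, form hexagonal nets or beaded filaments, or span the cell membrane. In brain, collagen is found mainly in the basement membrane of vessels and in the meninges. A peak at a start shows that the mark was called there in that list and is no measure of RNA or protein.

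Genes with a peak no more than 1 kb from any annotated start are called marked. Of the 44 collagens, 27 were marked in Q7SST, beside 59.9% of all protein-coding genes. In Q111SST 25 were marked, beside 58.4% of all genes. Cyproheptadine had 24 (55.4% of all genes), loxapine 25 (58.1%), DKI 24 (55.8%) and meclizine 26 (58.6%). In each list the marked share of collagens, 54.5% to 61.4%, lay close to that of all genes. The peaks were distinct for most members: the 27 marked genes of Q7SST rested on 25 peaks and the 25 of Q111SST on 24, because Col4a1 and Col4a2 shared a peak, as did Col4a3 and Col4a4 in Q7SST. No marked collagen had a start of a protein-coding gene other than a collagen within 1 kb of its strongest peak.

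The state of the collagens changed between lists at a higher share of genes than in the background. All 6 lists marked 19 collagens (53.5% of all genes were marked in all 6), and no list marked 12 (37% of all genes). The other 13 were marked in some lists and not in others, 29.5% of the collagens beside 9.52% of all genes. Of these, 6 were marked in Q7SST and in none of the 5 mutant lists (2.78% of all genes), and 5 were marked in all 5 mutant lists and not in Q7SST (0.936% of all genes). The remaining 2 were Col11a2 and Col13a1. The 6 and the 5 can be seen in the map of percentiles by list. These counts depended on the definition of a mark. With a peak over the start itself they were 6 and 0, and with a score at or above the pooled median of 47 they were 2 and 0. The genes changed too. Over the start, Col11a1 and Col18a1 stood in place of Col28a1 and Col4a6, and at the score limit the 2 were Col4a6 and Col11a1. The matching shares of all genes were not computed for these definitions. At a score of at least 47 cyproheptadine lost 10 of the 22 collagens of Q111SST and DKI 8, 45.5% and 36.4%. Of all genes so marked in Q111SST, 11.2% and 11.4% were lost. In lists cut to the 30758 highest-scoring peaks the losses were 2 and 1 of 25, 8% and 4%, beside 3.58% and 2.65%. Cyproheptadine and DKI were the lists with the fewest peaks, and the part of list length in these losses was not tested.

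**Figure D1:**
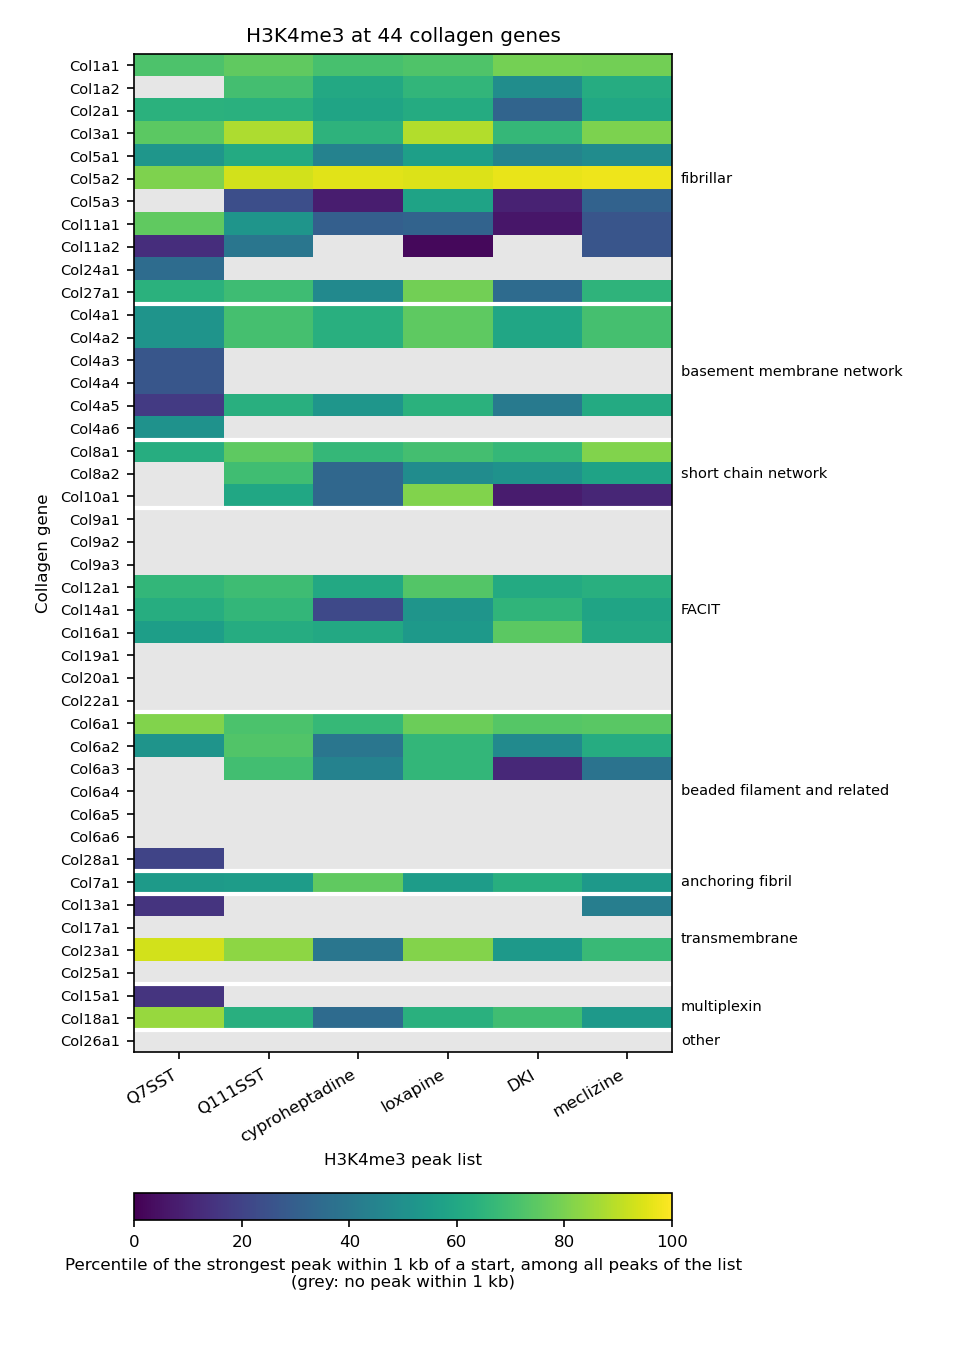
Percentile of the strongest H3K4me3 peak within 1 kb of a start (colour, 0 to 100 among all peaks of the list) for 44 collagen genes (rows, by structural class) in 6 peak lists (columns). Grey cells have no peak within 1 kb: 6 genes have colour in Q7SST and grey in all 5 mutant lists, and 5 genes show the opposite.

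Promoters of collagens on either side of this split are shown here, each as the 250 bases before the RefSeq start on GRCm38.p6, 5′ to 3′ on the gene's own strand. Capitals mark a match on either strand to the GC box (GGGCGG), the box bound by NF-Y (CCAAT) or the TATA box (TATAAA), and the reverse complement of the GC box is CCGCCC. RefSeq entries were found for 35 of the 44 collagens, and the other 9 are Col12a1, Col14a1, Col1a1, Col22a1, Col26a1, Col2a1, Col4a3, Col5a2 and Col9a3. The first 4 belong to genes marked in the mutant lists and not in Q7SST, and Col24a1 and the stretch between the paired starts of Col4a4 and Col4a3 belong to genes marked in Q7SST and in no mutant list. Those of Col8a2, Col15a1, Col28a1 and Col4a6 are not shown. They held no peak base in any list, and that of Col8a2 has 24 CpG and 4 GC boxes.
Col1a2 (chr6:4505368-4505617, plus strand): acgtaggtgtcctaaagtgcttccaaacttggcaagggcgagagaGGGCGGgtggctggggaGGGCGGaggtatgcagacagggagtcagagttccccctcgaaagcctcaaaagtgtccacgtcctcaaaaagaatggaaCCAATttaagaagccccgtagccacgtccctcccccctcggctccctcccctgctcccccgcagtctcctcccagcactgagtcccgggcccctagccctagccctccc
Col5a3 (chr9:20815068-20815317, minus strand): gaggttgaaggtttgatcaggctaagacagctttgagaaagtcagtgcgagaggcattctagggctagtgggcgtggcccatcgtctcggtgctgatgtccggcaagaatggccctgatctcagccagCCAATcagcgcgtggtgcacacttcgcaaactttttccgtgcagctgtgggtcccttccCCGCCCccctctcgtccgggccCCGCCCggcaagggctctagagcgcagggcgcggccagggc
Col6a3 (chr1:90843972-90844221, minus strand): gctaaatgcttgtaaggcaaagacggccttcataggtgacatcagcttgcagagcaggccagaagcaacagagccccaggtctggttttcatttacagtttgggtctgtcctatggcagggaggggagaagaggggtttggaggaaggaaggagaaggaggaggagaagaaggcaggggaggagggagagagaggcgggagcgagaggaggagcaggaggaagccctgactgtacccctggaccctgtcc
Col10a1 (chr10:34389731-34389980, plus strand): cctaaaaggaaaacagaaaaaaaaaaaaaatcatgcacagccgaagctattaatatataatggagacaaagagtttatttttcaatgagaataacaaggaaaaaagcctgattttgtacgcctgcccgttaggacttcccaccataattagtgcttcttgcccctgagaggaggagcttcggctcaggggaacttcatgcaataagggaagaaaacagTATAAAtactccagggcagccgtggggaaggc
Col24a1 (chr3:145292222-145292471, plus strand): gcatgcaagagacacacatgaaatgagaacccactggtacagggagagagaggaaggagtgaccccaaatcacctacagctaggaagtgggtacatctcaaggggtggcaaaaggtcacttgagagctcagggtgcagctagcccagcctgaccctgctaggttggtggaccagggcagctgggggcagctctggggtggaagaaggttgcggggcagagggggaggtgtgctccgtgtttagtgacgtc
Col4a4-Col4a3 (chr1:82586850-82586920, minus strand): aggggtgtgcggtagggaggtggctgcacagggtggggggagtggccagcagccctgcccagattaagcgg

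The base composition of the stretches shown varied. In the 250 bases shown, Col10a1 held 5 CpG and 41.6% GC, with a TATA box, and Col6a3 held 3 CpG and none of the 3 motifs. Col5a3 held 17 CpG, 2 GC boxes and an NF-Y box, and Col1a2 held 11 CpG, 2 GC boxes and an NF-Y box. Col24a1 held 3 CpG, and the 71 bases between Col4a4 and Col4a3 held 2.

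The 11 fibrillar collagens form the largest class. Counts were 9, 10, 9, 10, 9 and 10 in Q7SST, Q111SST, cyproheptadine, loxapine, DKI and meclizine, and this order of lists is used for all series of 6 values. Marked in all 6 were Col1a1, Col2a1, Col3a1, Col5a1, Col5a2, Col11a1 and Col27a1, and no fibrillar gene was unmarked in all 6.

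Type I collagen, the main protein of bone, skin and tendon, is built from 2 kinds of chain, and their genes did not share their state. Col1a1 (chr11:94936224-94953042) had a peak in all 6 lists, with percentiles of 72.3, 75.5, 70.9, 72.6, 79.2 and 78.9. The percentile is the rank of the peak's score among all peaks of its own list. The Col1a1 peak was 1857 bp wide in Q7SST, 2867 bp in Q111SST and 2943, 2709, 1777 and 1916 bp in the 4 compound lists, and in each list it began between 69 and 251 bp inside the gene and ran over its first exons and introns. Q7SST lay inside the range of the mutant lists in both percentile and width.

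Col1a2 (chr6:4504814-4541544), which encodes the other chain, was marked in the 5 mutant lists and not in Q7SST. Its peaks stood at percentile 70.2 in Q111SST and at 60.2, 65.6, 48.9 and 62.1 in the 4 compound lists. They were 2119 to 3208 bp wide and mostly intronic, and began 93, 196, 129, 106 and 58 bp downstream of the RefSeq start whose promoter is shown above, so that no base of that promoter lay in a peak. Q7SST was not without signal there. It held a peak of 1194 bp at percentile 65.0 that began 1398 bp downstream of the same start, 1314 bp from the nearest annotated start, and overlapped the Q111SST peak by 1059 bp. Within 2.5 kb of the gene's 5′ end, 299 bp were covered in Q7SST and 1501 to 1639 bp in the mutant lists. What set Q7SST apart at Col1a2 was therefore the missing stretch next to the start and not the absence of any peak, and with a window of 5 kb Col1a2 counted as marked in Q7SST.

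Col3a1 (chr1:45311538-45349706), which forms thin fibrils beside type I, was marked in all 6 lists at percentiles 74.9, 87.8, 64.5, 88.5, 66.8 and 80.3. Q111SST and loxapine were the highest. Its peak was 2357 to 2584 bp wide in 5 lists and 1131 bp with DKI, where a second peak of 459 bp at percentile 80.5 lay 2120 to 2578 bp after the start, outside the window. The peak covered the 5′ end of the gene in Q111SST and meclizine. With loxapine it began 15 bp downstream and covered a second annotated start at 109 bp, and in Q7SST, cyproheptadine and DKI it began 168 to 204 bp downstream, past both. Its promoter is shown because it holds 0 CpG and a match to the letters TATAAA, and lies beside one of the strongest collagen peaks. That of Col5a1, shown with it, is rich in CpG and lies under the widest.
Col3a1 (chr1:45311288-45311537, plus strand): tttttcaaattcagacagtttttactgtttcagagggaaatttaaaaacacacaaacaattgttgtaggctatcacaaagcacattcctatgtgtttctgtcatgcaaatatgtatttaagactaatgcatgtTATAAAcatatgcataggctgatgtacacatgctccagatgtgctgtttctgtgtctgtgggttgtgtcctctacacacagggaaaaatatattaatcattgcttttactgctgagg
Col5a1 (chr2:27886175-27886424, plus strand): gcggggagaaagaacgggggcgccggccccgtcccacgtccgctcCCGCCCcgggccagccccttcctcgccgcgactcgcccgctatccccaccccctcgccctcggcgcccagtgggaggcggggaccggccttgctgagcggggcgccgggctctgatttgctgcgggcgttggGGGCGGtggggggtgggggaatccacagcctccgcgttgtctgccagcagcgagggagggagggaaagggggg

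Type V chains join type I fibrils and limit their thickness. Col5a2 (chr1:45374321-45503282), the tail-to-tail neighbour of Col3a1 with 24614 bp between the genes, had the highest median percentile of the collagens marked in all 6 lists. Its percentiles were 80.8, 93.0, 95.3, 94.6, 96.9 and 97.4, and the Q7SST value lay below all 5 mutant values. Its width hardly varied, from 2722 to 2999 bp.

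Col5a1 (chr2:27886425-28039514) combined a wide peak with a middling score. Widths were 3767, 3657, 3237, 3817, 2992 and 3681 bp, the widest of any collagen by median, while percentiles ran from 44.3 to 61.3. All 250 promoter bases lay in the peak in each list, and the promoter holds 28 CpG and 2 GC boxes. Col5a3 (chr9:20770050-20815067), the third type V chain, was marked in the mutant lists at percentiles 24.2, 7.94, 58.1, 9.61 and 31.4 with peaks of 193 to 651 bp. These were narrow and mostly weak, and in Q7SST the nearest peak lay 62473 bp away.

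Type XI chains take the place of type V in cartilage fibrils. Col11a1 (chr3:114030540-114220718) had percentiles of 75.6, 52.3, 30.4, 31.8, 5.96 and 26.3, so Q7SST lay above every mutant list. The Q7SST peak was 2673 bp wide and ran from 433 bp before the start to 2239 bp after it. In the mutant lists the peaks were 714 to 1740 bp wide and began 247 to 681 bp after the 5′ end, so that none covered it. Within the annotated gene all of these bases were exonic in at least 1 transcript. Col11a2 (chr17:34039437-34066685) had a narrow intronic peak in Q7SST, Q111SST, loxapine and meclizine, at percentiles 13.2, 39.4, 2.07 and 26.3, and none within 1 kb with cyproheptadine or DKI.

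The remaining fibrillar genes were Col24a1, Col27a1 and Col2a1. Col24a1 (chr3:145292472-145552011) had a peak of 1124 bp from its start in Q7SST, at percentile 35.2, and in the mutant lists the peak nearest to this start lay 12540 to 12811 bp inside the gene. Col27a1 carried its strongest peak near a start 68663 bp inside the gene, where it was 200 to 573 bp wide. Another peak lay over its RefSeq start, 1408 bp inside the gene, in Q7SST, Q111SST, loxapine and meclizine. With cyproheptadine and DKI the peak nearest to that RefSeq start lay 67840 and 67807 bp away. With starts of protein-coding transcripts alone, Col27a1 was marked in 4 lists. Col2a1, the main chain of cartilage, had percentiles of 58.5 to 64.0 in 5 lists and 32.2 with DKI, at a start 2808 bp from the gene's 5′ end. With the gene's 5′ end alone, or with starts of protein-coding transcripts alone, Col2a1 was marked in 0 lists.

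The basement membrane chains were not marked alike in the 2 lines. All 6 type IV chains were marked in Q7SST and 3, Col4a1, Col4a2 and Col4a5, in each of the 5 mutant lists. This division depended on the definition of a mark. At a score at or above the pooled median of 47, Q7SST kept Col4a1, Col4a2 and Col4a6 and Q111SST kept Col4a1, Col4a2 and Col4a5, 3 each, and within 5 kb of a start Col4a6 was marked in all 6 lists. The 6 genes lie as 3 pairs, each read in opposite directions from starts close together. Head-to-head starts within 1 kb were found for 4 of the 44 collagens, 9.09%, beside 12.3% of all protein-coding genes.

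Col4a1 and Col4a2, which form the network present in nearly all basement membranes, start on opposite strands of chromosome 8 at positions 11312826 and 11312805, so that their first bases overlap. A single peak lay over both in each list, 2660, 2795, 2685, 2745, 2319 and 2447 bp wide, at percentiles 51.7, 70.7, 63.1, 75.2, 59.1 and 70.7. The peak kept its width, while its Q7SST percentile lay below all mutant values.

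Col4a3 and Col4a4, chains of the basement membrane of the kidney filter, start 72 bp apart on chromosome 1, around the 71 bases shown above. In Q7SST a peak of 789 bp lay over both starts at percentile 26.8, with a score of 30. In the mutant lists the nearest peak lay 9039 to 9118 bp from a start of Col4a3 and 10411 to 54778 bp from one of Col4a4. The pair was thus marked or unmarked together, on 1 weak peak.

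Col4a5 and Col4a6 start 1309 bp apart on chromosome X and did not move together. Col4a5 (chrX:141475385-141689234) was marked in all 6 lists, with widths of 2669 bp in Q7SST and 2799 to 2959 bp in the mutant lists. Its percentiles were 16.9, 63.1, 52.5, 63.9, 40.8 and 61.0, and the difference of -46.2 points, Q7SST less Q111SST, was, on this scale, larger in size than for any other collagen marked in both vehicle lists. Ranked among marked protein-coding genes the Col4a5 difference was -15.2 points and no longer the largest, and in lists of equal size Col4a5 was not marked in Q7SST. Col4a6 (chrX:141165403-141474076) had a peak of its own in Q7SST, 939 bp wide at percentile 50.8, which lay in an intron and began 517 bp inside the gene. In the mutant lists the nearest peak was that of Col4a5, 1351 to 1388 bp away and so just outside the window. At this pair Q7SST had the weaker peak on the Col4a5 side and the sole peak on the Col4a6 side.

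**Figure D2:**
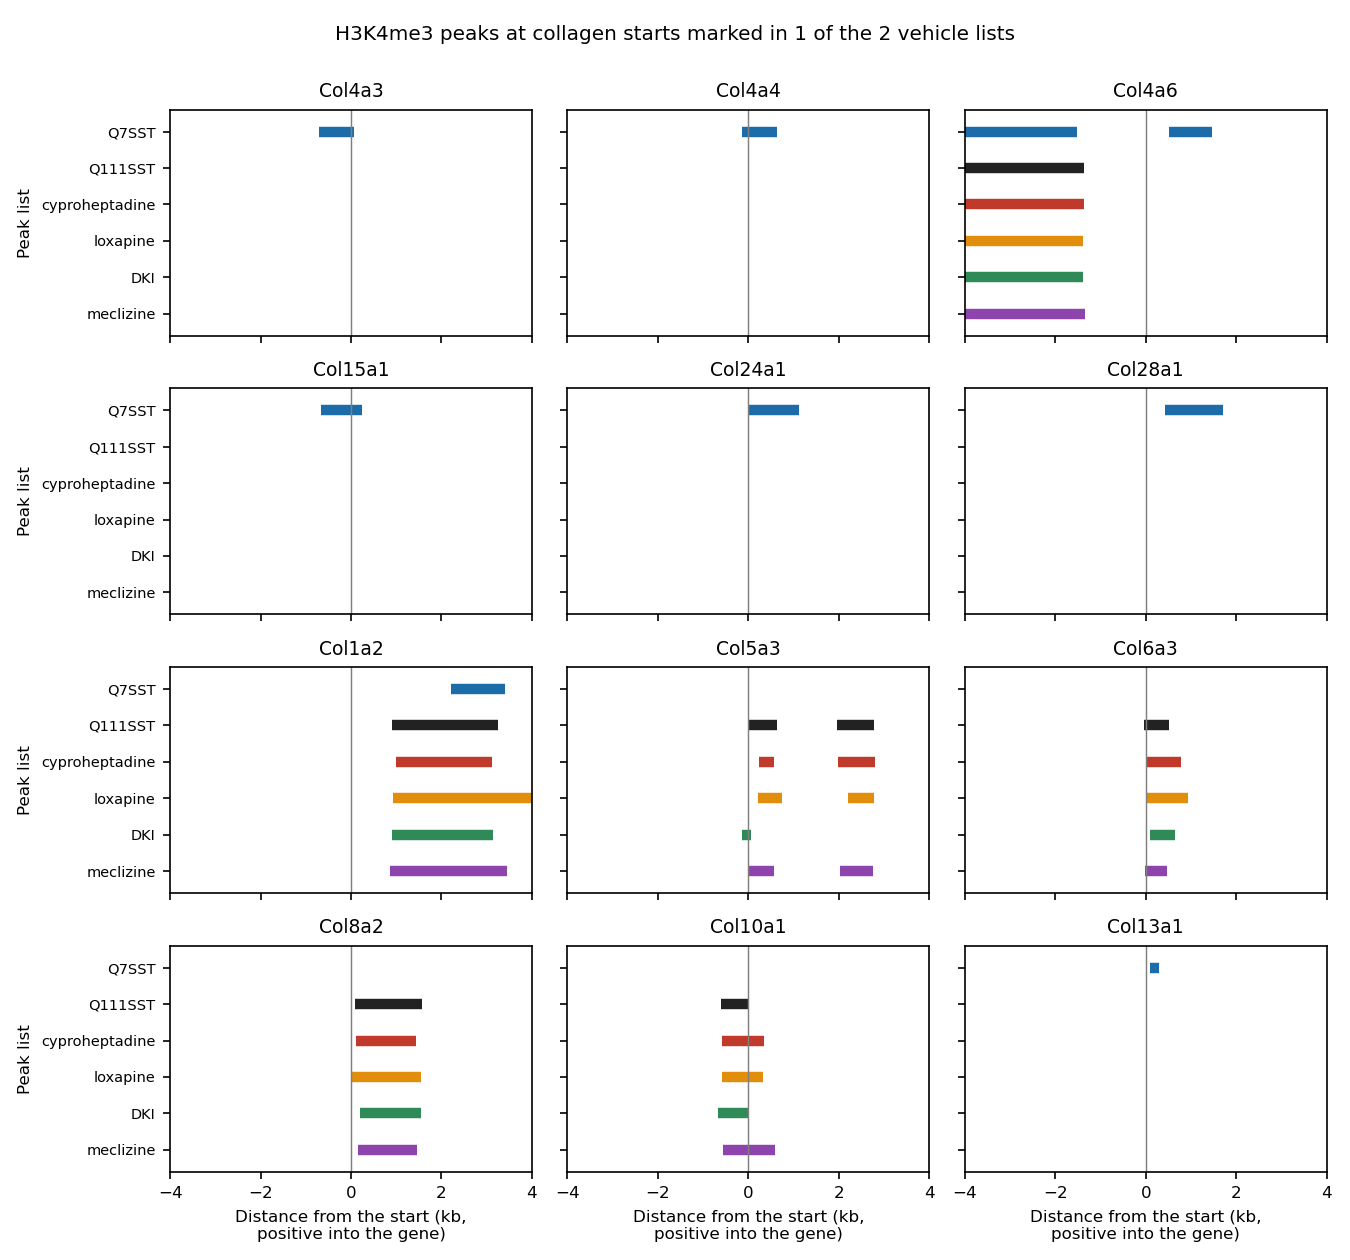
H3K4me3 peaks (bars, 1 row per list) within 4 kb of the start (vertical line at 0, positive values run into the gene) of the 12 collagens marked in exactly 1 of the vehicle lists Q7SST and Q111SST. The start is the annotated start used for each gene, which lies inside the gene for Col8a2, Col15a1 and Col28a1, and for Col1a2 is the gene's 5′ end. The Q7SST peak of Col1a2 begins more than 1 kb farther into the gene than the mutant peaks, which begin 862 to 1000 bp in, and the meclizine peak of Col13a1 lies outside the plotted stretch.

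The 3 short chain collagens form hexagonal nets, and 2 of them differed between the lines. Col8a1, found in vessel walls and in a membrane of the cornea, was marked in all 6 lists with peaks of 1930 to 3095 bp at percentiles 62.5 to 81.0, Q7SST being the lowest. Col8a2 (chr4:126286793-126314330) was marked in the 5 mutant lists at percentiles 69.3, 33.5, 48.6, 50.8 and 57.8, near a start 13737 bp inside the gene, with mostly intronic peaks of 1297 to 1539 bp. In Q7SST the nearest peak lay 9220 bp from a start. Col10a1 (chr10:34389981-34397085), known from growth-plate cartilage, had peaks of 615 to 1133 bp in the mutant lists that covered all 250 bases of the promoter shown above. Its percentiles were 59.6, 33.5, 81.1, 7.80 and 10.8, the widest spread over the mutant lists of the 5 genes without a Q7SST peak, and the nearest Q7SST peak lay 27571 bp away.

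FACIT collagens, which lie on the surface of fibrils, had the same 3 of 9 genes marked in all 6 lists. Col12a1 had peaks of 2328 to 2861 bp at percentiles 60.2 to 73.1. Col16a1 had percentiles of 53.6 to 74.8. Col14a1 had a peak that ended before the start in Q111SST and with cyproheptadine, loxapine and DKI, and that reached over it in Q7SST and with meclizine, with widths of 1534, 883, 1005, 768, 285 and 1544 bp. The other 6, Col9a1, Col9a2, Col9a3, Col19a1, Col20a1 and Col22a1, were unmarked in every list. The type IX chains, partners of type II in cartilage, were all among them. Col2a1 itself was marked, but in no list at the gene's 5′ end or at a start of a protein-coding transcript.

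Beaded filament collagen VI, found around cells in muscle and many other tissues, is built from chains whose genes fell into 3 patterns. Col6a1 and Col6a2, neighbours on chromosome 10 on the same strand with 85161 bp between them, were marked in all 6 lists. Col6a1 had widths of 1020, 2254, 1753, 2125, 1037 and 2187 bp at percentiles 81.1, 71.5, 67.1, 77.5, 73.7 and 74.5. Its Q7SST peak was the narrowest of the 6 and the highest in percentile. Col6a2 was 828 bp wide in Q7SST and 2450, 2132, 2373, 1808 and 2312 bp in the mutant lists, at percentiles 51.7, 72.8, 39.2, 66.2, 48.0 and 62.1. The shorter Q7SST peaks stopped 863 bp after the 5′ end in both genes, while the Q111SST peaks ran 2045 bp into Col6a1 and 2682 bp into Col6a2.

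Col6a3 (chr1:90765923-90843971), the chain that completes the usual collagen VI monomer, was marked in the mutant lists alone. Its peaks were 489 to 909 bp wide at percentiles 69.8, 44.3, 66.2, 11.4 and 38.1, and began between 44 bp before and 87 bp after the start. In Q7SST no base within 2.5 kb of the start was covered, and the nearest peak lay 1714 bp from an internal start, 72470 bp into the gene. Col6a4, Col6a5 and Col6a6, a run of same-strand neighbours on chromosome 9, were unmarked in every list. Col28a1, a related chain known from peripheral nerve, had a peak of 1269 bp in Q7SST at percentile 20.4, in an intron near a start 12443 bp inside the gene.

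The remaining classes are small. Col7a1, which anchors epithelia to the tissue below, was marked in all 6 lists at percentiles 54.2 to 75.4, with cyproheptadine the highest in percentile and the narrowest at 579 bp. Of the 4 membrane-spanning collagens, Col23a1 had a narrow peak of 494 to 727 bp at or just before its start in every list, with percentiles of 93.2, 82.9, 39.2, 81.4, 54.3 and 67.9. Q7SST was the highest and cyproheptadine the lowest. Col13a1, a collagen of the neuromuscular junction, had a peak of 197 bp at percentile 15.1 in Q7SST, 103 bp after its start, and one of 495 bp at percentile 42.9 with meclizine near a start 112695 bp inside the gene. These are different places, so the Col13a1 call of the meclizine list is not the call of Q7SST.

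Col17a1, a part of the junction that fixes skin cells to their basement membrane, and Col25a1, a neuronal collagen, were unmarked in every list. The promoter of Col25a1 is shown because it holds 18 CpG, 2 GC boxes and an NF-Y box, and yet the nearest peak lay 31093 to 118848 bp from this RefSeq start, which is 49344 bp inside the GENCODE gene.
Col25a1 (chr3:130180595-130180844, plus strand): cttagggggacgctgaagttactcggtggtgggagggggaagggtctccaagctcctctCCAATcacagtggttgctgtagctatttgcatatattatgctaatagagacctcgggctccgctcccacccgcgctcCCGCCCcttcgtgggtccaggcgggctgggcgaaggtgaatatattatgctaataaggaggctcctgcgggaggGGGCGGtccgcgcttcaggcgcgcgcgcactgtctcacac

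Of the multiplexins, whose ends release fragments such as endostatin, Col18a1 was marked in all 6 lists at percentiles 84.7, 63.1, 35.0, 63.3, 69.2 and 54.2. Its widths were 1799, 1097, 728, 1173, 755 and 1245 bp, so Q7SST exceeded every mutant list in both. Col15a1 had a peak of 899 bp in Q7SST at percentile 15.1, over a start 95561 bp inside the gene. In the mutant lists the nearest peak was 5207 to 11817 bp from a start. Col26a1, which belongs to no class here, was unmarked in every list, with the nearest peak 24407 to 24591 bp away.

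The calls rest on the window for a few members. Inside it, the farthest peaks of members marked in all 6 lists were those of Col14a1 with DKI, 943 bp from the start, and with loxapine, 661 bp, followed by Col11a1 in Q111SST, 587 bp, and with DKI, 559 bp. Outside it, the nearest were Col1a2 in Q7SST, 1314 bp, Col4a6 in the 5 mutant lists, 1351 to 1388 bp, and Col9a3 in Q111SST and with meclizine, 1535 and 1544 bp.

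Between the vehicle lists, 7 collagens were marked in the Q7SST list alone (3.6% of all genes) and 5 in the Q111SST list alone (2.08% of all genes). Of the 32 collagens marked in either list, 12 differed, 37.5%, beside 9.15% of the 13578 genes marked in either. With 1 list per line these shares describe the 2 lists. The peaks at the 7 Q7SST genes, of which Col4a3 and Col4a4 share 1, lay at percentiles from 15.1 to 50.8, and those at the 5 Q111SST genes from 24.2 to 70.2. When a score at or above the pooled median of 47 was required in both lists, whose scores may not share a scale, the Q7SST count fell from 7 to 2, now Col4a6 and Col11a1, beside 3.55% of all genes. The Q111SST count stayed at 5, with Col4a5 in place of Col5a3, beside 2.09% of all genes. The Q7SST side of the difference thus rested mostly on low-scoring peaks, and without them its share lay near the background. When a peak had to lie over a start itself, 7 and 4 collagens differed, beside 4.18% and 2.72% of all genes, 4 of the 7 and 3 of the 4 being those of the 1 kb window. In lists of equal size, reduced to the 30758 highest-scoring peaks, 5 and 7 differed, beside 3.6% and 1.93%, so that the larger count passed to Q111SST.

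Among the 20 collagens marked in both vehicle lists, 5 had a higher percentile in Q7SST (25%, beside 41.9% of all genes marked in both) and 15 in Q111SST. The median difference, Q7SST less Q111SST, was -5.37 percentile points for collagens and -1.04 for the 12335 genes marked in both. Widths ran the same way, with a median ratio of Q7SST to Q111SST of 0.919 for collagens and 0.973 for all genes. After Col4a5, the largest percentile differences were -26.2 for Col11a2, 23.3 for Col11a1, 21.7 for Col18a1 and -21.1 for Col6a2. Ranked among marked protein-coding genes in place of all peaks, 8 were higher and 12 lower in Q7SST, with a median difference of -1.23, and the order of the genes was another. On that scale the difference was 42.9 for Col18a1, 31.9 for Col23a1, 29.4 for Col11a1, -28.7 for Col5a2, -25.6 for Col3a1 and 24.7 for Col6a1. For Col6a2 it was -16.4 and for Col11a2 -4.90.

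Q7SST was also set against the range of all 5 mutant lists. Of the 19 marked in all 6 lists, Q7SST was narrower than every mutant list at 3, Col4a5, Col6a1 and Col6a2 (9.34% of all genes marked in all 6), and wider at 2, Col11a1 and Col18a1 (24.2%). Its percentile was below every mutant value at 5, Col4a1, Col4a2, Col4a5, Col5a2 and Col8a1 (15.4%), and above at 5, Col11a1, Col18a1, Col23a1, Col2a1 and Col6a1 (21%). These counts are small, and Col4a1 and Col4a2 share a peak. The plot of widths shows Col6a2 and Col11a1 as the members whose Q7SST width lay farthest from the mutant lists.

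**Figure D3:**
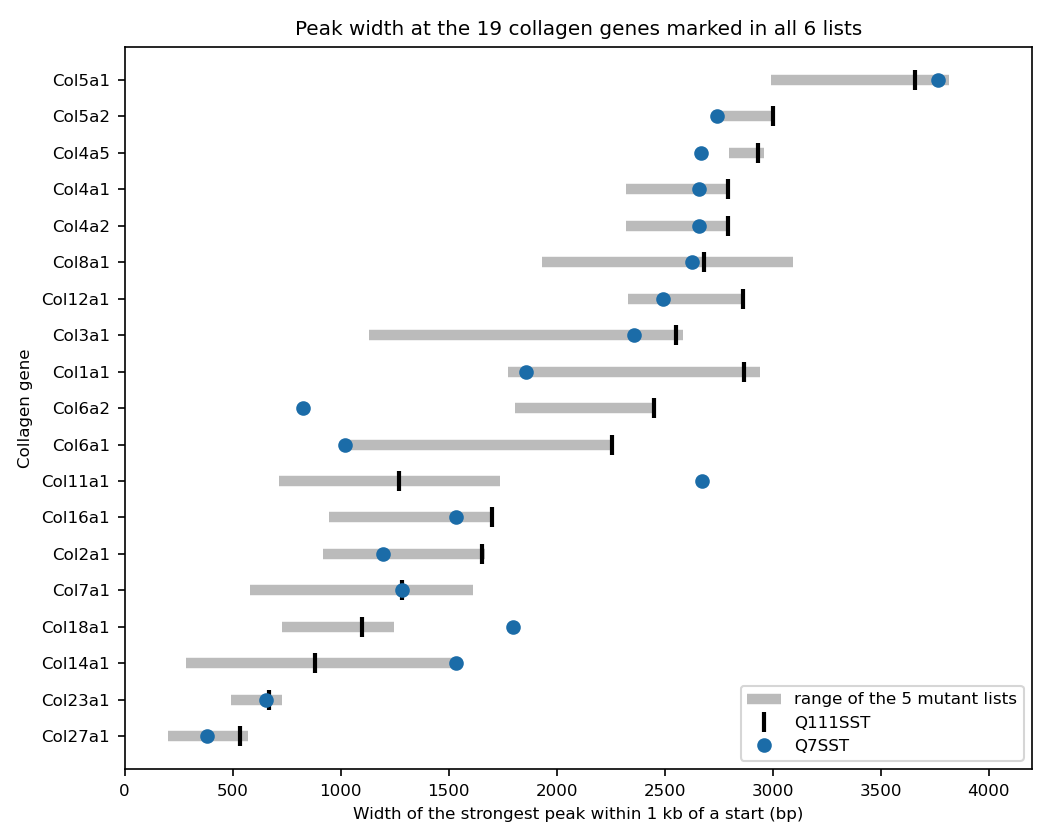
Width in bp of the strongest H3K4me3 peak within 1 kb of a start (horizontal axis) for the 19 collagens marked in all 6 lists (rows, by median width). Grey bars span the 5 mutant lists, black ticks are Q111SST and blue points Q7SST: Col6a2 is at 828 bp in Q7SST and 1808 to 2450 bp in the mutant lists, Col11a1 at 2673 bp and 714 to 1740 bp.

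The 4 compound lists are each set against the same Q111SST list, so their values are given side by side and are not independent. Cyproheptadine gained 0 collagens (0.306% of all genes) and lost 1, Col11a2 (3.33%). Loxapine gained 0 (1.01%) and lost 0 (1.24%). DKI gained 0 (0.269%) and lost 1, Col11a2 (2.88%), and meclizine gained 1, Col13a1 (1.02%), and lost 0 (0.799%). With a peak over the start itself the losses were 6, 4, 5 and 1 of the 18 collagens of Q111SST in the order cyproheptadine, loxapine, DKI and meclizine, 33.3%, 22.2%, 27.8% and 5.56%. Of all genes marked in Q111SST by that definition, 12.6%, 7.62%, 9.74% and 2.58% were lost.

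Among collagens marked in both lists, the percentile was compared with Q111SST. With cyproheptadine 2 of 24 collagens marked in both lists had a higher percentile than in Q111SST and 22 a lower one, with a median change of -13.4 points beside -3.74 for all genes. The share that was higher was 8.33%, beside 27.7% of all genes. With DKI 6 were higher, 25% beside 21.7%, and 18 lower, with a median of -15.4 beside -6.57. With meclizine 7 were higher, 28% beside 35.4%, and 18 lower, with a median of -5.80 beside -1.54. With loxapine 11 were higher, 44% beside 46.8%, and 14 lower, with a median of -1.45 beside -0.35. Cyproheptadine and DKI, with the larger changes, were the lists with the fewest peaks, 33721 and 30758 against 40406 in Q111SST. In lists of equal size the medians, in the order cyproheptadine, loxapine, DKI and meclizine, were -4.53, -5.87, -3.25 and -4.31, beside -1.03, -2.57, -1.83 and -1.12 for all genes. There 6 collagens were higher and 17 lower with cyproheptadine, 8 and 15 with loxapine, and 9 and 15 with DKI and with meclizine alike. The order of the compounds in the full lists thus did not hold in lists of equal size. The median ratio of collagen peak width to that in Q111SST was 0.895, 0.982, 0.778 and 0.944 for cyproheptadine, loxapine, DKI and meclizine, beside 0.887, 0.987, 0.833 and 0.942 for all genes.

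In every list the marked collagens ranked below the general run of marked genes. Their median percentiles were 54.7, 68.9, 55.5, 66.2, 56.7 and 60.7, beside 80.4, 82.6, 79.5, 83.0, 76.3 and 80.3 for all marked protein-coding genes. In Q7SST 4 of the 27 marked collagens exceeded the median of all marked genes, and in the mutant lists 1 to 3 did. The median width of the collagens was below that of all marked genes in 4 lists, by most in Q7SST and DKI, and above it with cyproheptadine and meclizine. Median widths were 1286, 1701, 1632, 1667, 1144 and 1704.5 bp for collagens and 1709, 1795, 1546, 1720, 1461 and 1672 bp for all marked genes. The direction depended on the genes compared. For the 19 collagens marked in all 6 lists the median widths were 1857, 2450, 2132, 2328, 1157 and 2057 bp, beside 1781, 1859, 1564, 1777, 1488 and 1736 bp for the 11713 genes marked in all 6, so that collagen peaks were then wider except with DKI. Peaks both wider than the median width and lower in percentile than the median percentile of all marked protein-coding genes in their list made up 33.3% to 45.8% of marked collagens and 22.7% to 23.9% of all marked genes. In all 6 lists this held for Col12a1, Col4a1, Col4a2, Col4a5 and Col5a1. The strongest peak covered a start in 50% to 72% of marked collagens and 79.5% to 87.8% of all marked genes. At Col4a5 the peak began downstream of the nearest start in all 6 lists.

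CpG content around the 5′ end, taken over 300 bases of the genome for all 44 collagens, went with the mark less steeply than in genes at large. The ratio of observed to expected CpG had a median of 0.543 for the 19 collagens marked in all 6 lists, 0.408 for the 13 marked in some and 0.319 for the 12 marked in none. For all protein-coding genes the medians were 0.755, 0.444 and 0.191. Around the 5′ end, collagens marked everywhere thus held fewer CpG than other such genes, and unmarked collagens held more. The mark was counted at any start and so not always at the place where CpG was measured. At Col2a1, Col27a1, Col8a2, Col15a1 and Col28a1 no list had a peak within 1 kb of the 5′ end. Col3a1, at 0, and Col5a2, at 0.102, were marked in all 6 lists and had the highest percentiles by median over the lists, though not in each list, and Col19a1, at 0.592, was marked in none. GC boxes were found in 15 of the 19, 4 of the 13 and 4 of the 12 collagens, beside 61.8%, 42.8% and 16.0% of all genes in those states. In the 250 RefSeq bases, GGGCGG was found for 21 of 35 collagens, CCAAT for 13 and TATAAA for 5, where any entry of a gene counted. Over all 32851 RefSeq promoters, counted by entry and so not like for like, the shares were 32.7%, 33.8% and 12.4%. Counted by gene in the 300 bases around the 5′ end, a GC box was found in 52.3% of the 44 collagens and 43.0% of all genes, CCAAT in 38.6% and 39.0%, and TATAAA in 13.6% and 12.6%.

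**Figure D4:**
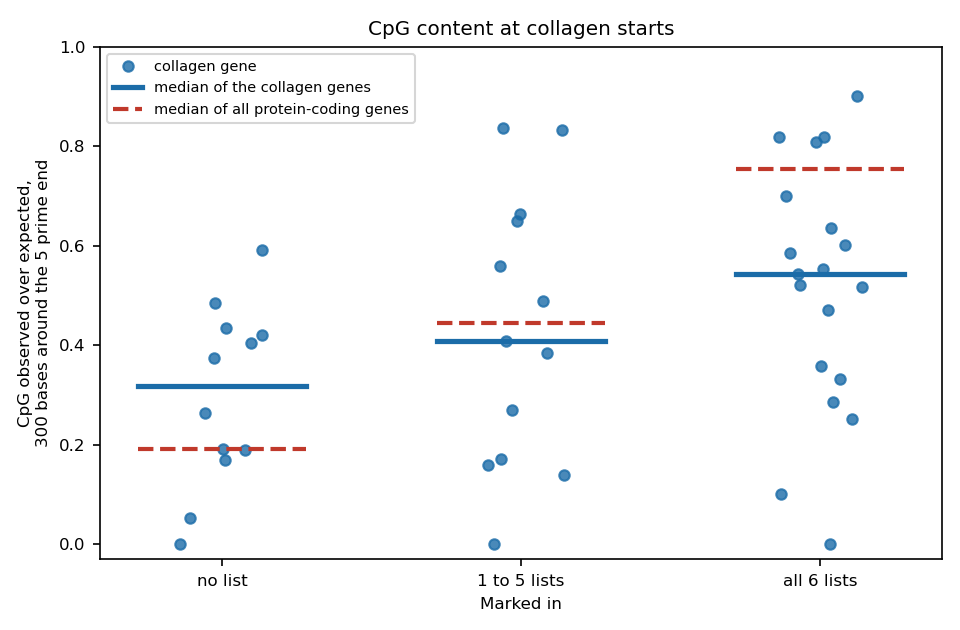
Ratio of observed to expected CpG in the 300 bases around the gene's 5′ end (vertical axis) for 44 collagens (points, spread sideways to separate them), by the number of lists that mark the gene at any start. Blue lines are collagen medians, 0.319, 0.408 and 0.543 from left to right, and dashed red lines the medians of all protein-coding genes in the same state, 0.191, 0.444 and 0.755.

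Genes that modify, export, trim, cross-link, bind and degrade collagen were also examined. Of 55 such genes, 44, 45, 42, 44, 41 and 44 were marked, 39 in all 6 lists and 8 in none. By list that was 74.5% to 81.8%, beside 55.4% to 59.9% of all genes, and 53.5% of all genes were marked in all 6 lists and 37% in none. The other 8, 14.5%, varied between lists, beside 29.5% of collagens and 9.52% of all genes. All 18 genes of modification and folding were marked in both vehicle lists, among them the prolyl hydroxylases P4ha1, P4ha2 and P4ha3 and the collagen chaperone Serpinh1. Of the 18, P3h4 and Fkbp10 had the same percentile and width in each list, as a shared peak gives. All 5 genes of secretion were marked in every list. Of the 12 genes of propeptide removal and cross-linking 10 were marked in each vehicle list, and of the 10 genes of degradation 5 were marked in every list. Unmarked in all 6 were, first in order of symbol, the propeptidase Adamts2, the bone protease Ctsk and the platelet receptor Gp6.

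The vehicle lists differed at 5 of these 55 genes, 9.09%, beside 27.3% of the 44 collagens and 5.67% of all genes. Adamts3, which removes the propeptide of type II collagen, was marked in Q7SST, at percentile 47.4, and in no mutant list. So was the collagen receptor Itga11, at percentile 22.1. Lox, which cross-links collagen, was unmarked in Q7SST and with cyproheptadine and stood at percentile 84.6 in Q111SST, 44.7 with loxapine, 91.0 with DKI and 86.7 with meclizine. Ddr2, a receptor for fibrillar collagen, was marked in the 5 mutant lists at percentiles 72.6 to 77.9 with peaks of 2385 to 2978 bp, and not in Q7SST. Itga2 was marked in Q111SST at percentile 63.1 and, except with DKI, in the compound lists, and not in Q7SST. Both directions thus occurred, as among the collagens.

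Marker genes of cell types were checked because collagens are made by many of them. Of 10 markers of striatal and neural progenitors 8, 7, 5, 7, 6 and 7 were marked, and of 10 of fibroblasts and mesenchyme 6, 7, 6, 6, 5 and 7, with Pdgfra, Pdgfrb, Twist1, Prrx1 and Dcn in all 6 lists. Vim, Dlx1, Dlx2 and Meis2 were marked in every list, Sox2 in the mutant lists and not in Q7SST, and Gsx2 in Q7SST and in no mutant list. Endothelium had 1 of 5 markers marked in each list, chondrocytes 2 in Q7SST and 3 in each mutant list of 5, epithelium 1 or 2 of 5, blood and microglia 0 or 1 of 5, and astrocytes 1 or 2 of 3. Pecam1, Cdh5, Ptprc and Krt5 were unmarked in all 6. The part of cell identity in the collagen calls was not tested.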

How the data were processed

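H3K4me3 ChIP-Seq of 6 conditions gave 6 deposited peak lists, 1 per condition, grouped by the sample titles. Per the labels, the submitters' processing notes name Trimmomatic 0.36, Bowtie2, SAMtools 1.3, MACS2 and mm10. The authors deposited for each peak its position and a whole-number score, whose scale, threshold, input control and pooling of replicates are not given in the sources used here. The lowest score was 10 in each list. Read depth is unknown, so no interval was given. Peaks were joined to GENCODE M21 starts, and scores were ranked within each list, with ties averaged. For each gene the strongest peak within 1 kb of a start was used. Coordinates are on GRCm38, counted from 1, and 0 of 21 chromosomes had a peak beyond the end. Sequences came from RefSeq tables of GRCm38.p6 and, for base composition, the genome. Python 3.11.15, pandas 2.3.3, numpy 2.4.6, pysam 0.24.0 and matplotlib 3.10.9 were used, and the peak joins were tested on simulated data.

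The members and gene lists were chosen with earlier results of these data known. Named with values were collagens whose state differed between lists, the 5 highest and 5 lowest by median percentile and the 5 widest, the 5 with the largest percentile difference between vehicle lists, head-to-head pairs, Col1a1, Col1a2, Col3a1 and all Col4 chains. Col2a1, Col8a1, Col12a1, Col14a1, Col16a1, Col27a1 and the CpG examples were added after their values were seen. Of the marker genes, 1 is not reported here by name. Alternatives were windows of 0 and 5 kb, lists of equal size, a score threshold, other sets of starts, the widest peak, another rank and merged peaks.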

Additional observations from a re-analysis of the deposited data

How the results depend on the processing

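No paired analysis was possible because there was a single list for each condition, and no replicate could be left out. Of the summary values under the alternatives, 107 stayed within the limits set and 34 moved. With a peak over the start itself, 12 collagens were marked with cyproheptadine, 14 with loxapine and 13 with DKI. The losses from Q111SST were 6, 4, 5 and 1 with cyproheptadine, loxapine, DKI and meclizine, with the shares given above. Meclizine gained 2, beside 2.2% of all genes. Within 5 kb cyproheptadine and DKI each lost 2, 7.41% of the collagens so marked in Q111SST, beside 6.54% and 6.11% of all genes so marked. In lists of equal size 23 collagens were marked in Q7SST and 25 in Q111SST, with 5 and 7 in 1 of the vehicle lists alone, which turns the balance of 7 and 5. There cyproheptadine and loxapine each lost 2 collagens, 8%, beside 3.58% and 3.36% of all genes so marked in Q111SST. Meclizine and DKI each lost 1, 4%, beside 1.29% and 2.65%. The median percentile in lists of equal size became 59.1 in Q111SST, 49.98 with loxapine and 51.1 with meclizine, beside 54.5 with cyproheptadine and 56.7 with DKI. At the pooled median score 12 were marked with cyproheptadine and 14 with DKI, and 2 were marked in Q7SST and not Q111SST. Cyproheptadine lost 10 and DKI 8, with the shares given above. Meclizine lost 2, 9.09%, and loxapine 1, 4.55%, beside 1.18% and 3.05% of all genes so marked in Q111SST. Loxapine gained 1, beside 1.22% of all genes, and meclizine 0, beside 1.89%. With the 5′ end of the gene alone meclizine gained 0, beside 1% of all genes. With starts of protein-coding transcripts cyproheptadine and DKI each lost 2, 8.33%, beside 5.65% and 4.89% of all genes so marked in Q111SST. Ranked among marked genes, the median percentiles were 14.3, 23.4, 15.9, 22.7, 22.1 and 18.8 from Q7SST to meclizine. These alternatives use fewer or wider windows, fewer peaks or another scale by construction. Of the values of single genes, 250 stayed and 78 moved. The 2 shortest lists were also left out, a choice made after seeing the data, and no share of all genes was computed. Without them 20 collagens were marked in every list, 6 in Q7SST alone and 5 in the mutant lists alone. With all 6 lists the last 2 counts were 6 and 0 with a peak over the start, and 2 and 0 at the pooled median score, in part at other genes. Unknown depth and 1 list per condition limit all counts.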

Other observations

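Collagen genes also held peaks away from their starts. Counting peaks over the gene and more than 1 kb from any of its starts, the lists from Q7SST to meclizine, in the order used above, held 78, 84, 63, 104, 57 and 86. Col4a2, a chain of basement membranes, held 7, 12, 8, 10, 7 and 11, and Col8a1 held 9, 10, 8, 10, 9 and 10, the most of the collagens. Col14a1, which lies on the surface of fibrils, held 1 in Q7SST and 6 or 7 in each mutant list, although its start was marked in all 6. Col28a1 held 0 in Q7SST, where its start was marked, and 1 to 6 in the mutant lists, where it was not. Counts of this kind can rise with gene length and list length, and this was not tested. These genes were chosen after their values were seen.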
